A study of Mus musculus with 2 samples.

Results

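Neutrophil granule genes encode the antimicrobial proteins that a developing neutrophil packs into its granules. The set described here was chosen by gene symbol and holds 10 of the 32285 genes in the count matrices. The primary (azurophil) granule genes were Mpo, Elane, Prtn3 and Ctsg, and the secondary (specific) granule genes were Ngp, Camp, Ltf, Lcn2, Chil3 and Pglyrp1. All 10 symbols were found once each. Their RNA was followed across the neutrophil lineage and into the other cell classes of 2 single-cell libraries of plastic-adherent mouse bone marrow stromal cells (BMSC cultures).

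One library came from Prrx1-Cre+/-; Slc31a1flox/flox mice (cKO), in which the copper importer SLC31A1 is deleted in limb mesenchyme, where the Prrx1 driver is active. The other came from littermates that carried Slc31a1flox/flox without Cre (WT), so both groups carry the floxed alleles. Both were on a C57BL/6J background. Marrow of femurs and tibias was cultured in alpha-MEM with 10% fetal bovine serum, unattached cells were taken off at 48 h, and no drug or osteogenic medium was given. The labels give 1 library per genotype, both in batch 1, and neither a number of animals nor an age. The Cre driver is not aimed at blood cells, and Slc31a1 had 25.2 CPM in cKO and 24.0 CPM in WT neutrophil-lineage cells, against 14.3 CPM in cKO and 42.4 CPM in WT mesenchymal-like cells. CPM is the count of unique molecular identifiers (UMIs) of a gene per 1000000 UMIs of the cells summed.

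Granules form in sequence as a neutrophil matures in the marrow. Primary granules are made at the promyelocyte stage and carry myeloperoxidase and serine proteases. Secondary granules follow at the myelocyte and metamyelocyte stages and carry proteins that bind iron, siderophores and bacterial wall components. The genes are switched on and off at these stages by factors that include PU.1, C/EBP-alpha and C/EBP-epsilon, and loss of C/EBP-epsilon in mice leaves neutrophils without normal secondary granules.

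Promoter windows (250 bases before to 50 after the RefSeq gene start, build GRCm38.p6) were found for all 10 genes and searched on both strands for 2 short motifs. One was AGGAAGT, the core of sites bound by PU.1 and other ETS factors, and the other was TTGCNNAA, the palindromic core of C/EBP sites. AGGAAGT was found in 4 of 4 primary granule windows and in 1 of 6 secondary granule windows (Chil3), and in 9.35% of all 32851 mouse promoter windows. TTGCNNAA was found in 0 of 4 primary and in 3 of 6 secondary granule windows (Ngp, Ltf and Lcn2), and in 10.8% of all windows. In the primary windows AGGAAGT began 223 bases before the start in Mpo, 84 in Elane, 94 in Prtn3 and 206 in Ctsg. TTGCNNAA began 138 and 11 bases before the start in Ngp, 75 in Ltf and 216 in Lcn2. The motifs were chosen with earlier results known, and a match describes letters, not binding. The windows below show the contrast between the classes, with matches on either strand in capitals. Capitals mark AGGAAGT for the 3 primary genes and TTGCNNAA for the 2 secondary genes, where TTGGGCAA in Ngp and Ltf is a match on the other strand.
Mpo promoter, chr11:87793534-87793833, plus strand: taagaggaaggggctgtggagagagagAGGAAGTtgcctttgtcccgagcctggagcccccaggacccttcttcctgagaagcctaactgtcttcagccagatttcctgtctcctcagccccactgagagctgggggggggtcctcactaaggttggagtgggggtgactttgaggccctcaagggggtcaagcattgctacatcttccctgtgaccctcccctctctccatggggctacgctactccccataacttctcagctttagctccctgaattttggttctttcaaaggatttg
Elane promoter, chr10:79886062-79886361, plus strand: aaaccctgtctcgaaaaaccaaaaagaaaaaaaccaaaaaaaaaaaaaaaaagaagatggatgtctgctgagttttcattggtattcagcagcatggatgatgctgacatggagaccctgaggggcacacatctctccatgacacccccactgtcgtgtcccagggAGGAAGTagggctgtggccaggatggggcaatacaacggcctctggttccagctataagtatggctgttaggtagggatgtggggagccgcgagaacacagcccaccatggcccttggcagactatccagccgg
Prtn3 promoter, chr10:79879417-79879716, plus strand: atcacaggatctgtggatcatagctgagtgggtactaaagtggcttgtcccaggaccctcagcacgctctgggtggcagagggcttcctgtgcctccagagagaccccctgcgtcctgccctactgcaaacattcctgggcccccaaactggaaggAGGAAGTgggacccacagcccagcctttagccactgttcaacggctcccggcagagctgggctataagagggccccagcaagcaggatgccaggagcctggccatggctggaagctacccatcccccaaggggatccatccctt
Ngp promoter, chr9:110419558-110419857, plus strand: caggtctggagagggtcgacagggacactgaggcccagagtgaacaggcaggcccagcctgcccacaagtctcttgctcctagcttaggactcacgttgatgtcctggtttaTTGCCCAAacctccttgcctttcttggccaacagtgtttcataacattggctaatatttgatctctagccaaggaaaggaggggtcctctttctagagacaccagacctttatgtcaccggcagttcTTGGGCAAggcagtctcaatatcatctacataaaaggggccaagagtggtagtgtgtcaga
Ltf promoter, chr9:111019042-111019341, plus strand: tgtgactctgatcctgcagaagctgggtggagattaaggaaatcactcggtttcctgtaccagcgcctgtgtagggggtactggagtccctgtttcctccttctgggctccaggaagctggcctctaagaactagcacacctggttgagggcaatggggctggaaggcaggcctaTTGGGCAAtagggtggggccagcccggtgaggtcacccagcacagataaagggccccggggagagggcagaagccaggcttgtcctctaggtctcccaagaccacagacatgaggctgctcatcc

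By the GENCODE M21 annotation of GRCm38, Elane starts 3072 bases after the end of Prtn3 on chromosome 10, and Camp, Ngp and Ltf lie within 1195389 bases on chromosome 9. Mpo (ENSMUSG00000009350, chromosome 11) overlaps Gm11505 and Prtn3 (ENSMUSG00000057729, chromosome 10) overlaps Plppr3, each on the opposite strand. No source used here says whether reads were assigned by strand, so reads of such overlapping pairs could be shared. Chil4, a close paralog of Chil3, had 2 UMIs in cKO and 0 in WT neutrophil-lineage cells.

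The cKO library held 126031142 UMIs in 6140 barcodes and the WT library 152398639 UMIs in 9125 barcodes, of which 5263 cKO and 7637 WT barcodes were kept. The 2 libraries shared 11 barcode sequences, 6 of them among kept cells. Neutrophil-lineage cells were 335 of the kept cKO cells (6.37%, 95% interval 5.72 to 7.06) and 314 of the kept WT cells (4.11%, 3.68 to 4.58), with medians of 8934 and 6852.5 UMIs. They were named from sub-clusters made without the 10 granule genes. All 10 neutrophil markers reached 10 CPM there in both libraries, for example S100a8 with 71842 CPM in cKO and 71185 CPM in WT. Of the markers of other classes, those of mesenchymal cells summed to 373 CPM in cKO and 725 CPM in WT lineage cells (4 and 6 of 10 markers at 10 CPM or more). Those of macrophages summed to 128 CPM in cKO and 177 CPM in WT (8 of 10 at 10 CPM or more in each). Those of monocytes or dendritic cells summed to 1480 CPM in cKO and 1458 CPM in WT (1 and 2 of 8 at 10 CPM or more), those of osteoclasts to 209 and 226 CPM and those of mast cells or basophils to 150 and 122 CPM (1 of 8 in each), while 8 of 8 erythroid markers were at 0 in cKO and 7 of 8 in WT. Mmp9, counted among the osteoclast markers but also a gene of neutrophil granules, had 197 CPM in cKO and 216 CPM in WT lineage cells. The part of RNA from other classes in the values below was not tested. A single library per genotype allows no test between genotypes, and none was made. All intervals are exact 95% intervals that cover counting error only. They leave out variation between cells and between animals, so they are too narrow to compare the cells sampled and do not compare the genotypes. In cKO, 4 of the 335 lineage cells held 26.1% of the primary granule UMIs, and in WT 4 of 314 held 21.2%.

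The lineage was ordered by a score of other genes (a late list such as Csf3r, Cxcr2 and Retnlg minus progenitor and cell cycle lists), and its 8 sub-clusters were numbered as stages 1 to 8. The progenitor list included Prss57, which is also on the list of other granule genes used below. The order was therefore not fully separate from the granule programme. Stage 1, led by Ms4a3, Myl10 and Fcnb, held 28 cKO and 37 WT cells (8.36% and 11.8% of lineage cells). Stages 2, 3 and 4 had the highest mean levels of the cell cycle list, scored close together, and held 62, 41 and 41 cKO cells and 56, 32 and 23 WT cells. Stages 5 and 6 held 59 and 52 cKO cells and 70 and 35 WT cells. Stage 7, led by Retnlg, held 27 cKO and 40 WT cells. Stage 8, led by Retnlg, Stfa2l1 and Cxcr2, held 25 cKO and 21 WT cells. With the progenitor list alone in the score, stage 4 came directly after stage 1 and the rest kept their order. Median depth was 19477.5 UMIs in cKO and 15280 in WT at stage 1, 11737 and 9750.5 at stage 2, 15375 and 13464 at stage 4, and 4888 and 3811 at stage 8.

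The primary granule genes were concentrated in stage 1 in both libraries. Their summed level there was 19118 CPM in cKO (18753 to 19489) and 15519 CPM in WT (15200 to 15844). At stages 2 and 3 the sum was 575 and 302 CPM in cKO and 675 and 152 CPM in WT. Stage 4 stood out among the cycling stages, with 3947 CPM in cKO and 2417 CPM in WT. At stage 5 the sum was 206 CPM in cKO and 192 CPM in WT. At stage 6 there were 2 primary UMIs in 52 cKO cells and 3 in 35 WT cells, and at stages 7 and 8 there were 0 in cKO and 1 per stage in WT.

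Mpo, which encodes the peroxidase that makes hypochlorous acid, was nearly limited to stage 1. It had 4530 CPM in cKO and 4349 CPM in WT at stage 1, 250 CPM in cKO and 70.9 CPM in WT at stage 4, and at most 29.8 CPM at every other stage in either library. Of all Mpo UMIs in the lineage, 2464 of 2613 in cKO and 2517 of 2558 in WT lay in the 28 and 37 stage 1 cells. Elane, the gene of neutrophil elastase, had 6299 CPM in cKO and 4372 CPM in WT at stage 1 and 1885 and 1173 CPM at stage 4. Its UMIs ended between stages 5 and 6, with 62.6 CPM in cKO and 69.6 CPM in WT at stage 5 and 0 UMIs in both libraries after it. Prtn3, the gene of proteinase 3, followed Elane, with 6506 CPM in cKO and 5708 CPM in WT at stage 1, and 133 CPM in cKO and 101 CPM in WT at stage 5. Ctsg, the gene of cathepsin G, had 1783 CPM in cKO and 1090 CPM in WT at stage 1 and 125 CPM in cKO and 92.2 CPM in WT at stage 4. Stage 4 thus kept more of the Elane and Prtn3 RNA than of the Mpo and Ctsg RNA of stage 1.

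**Figure D1:**
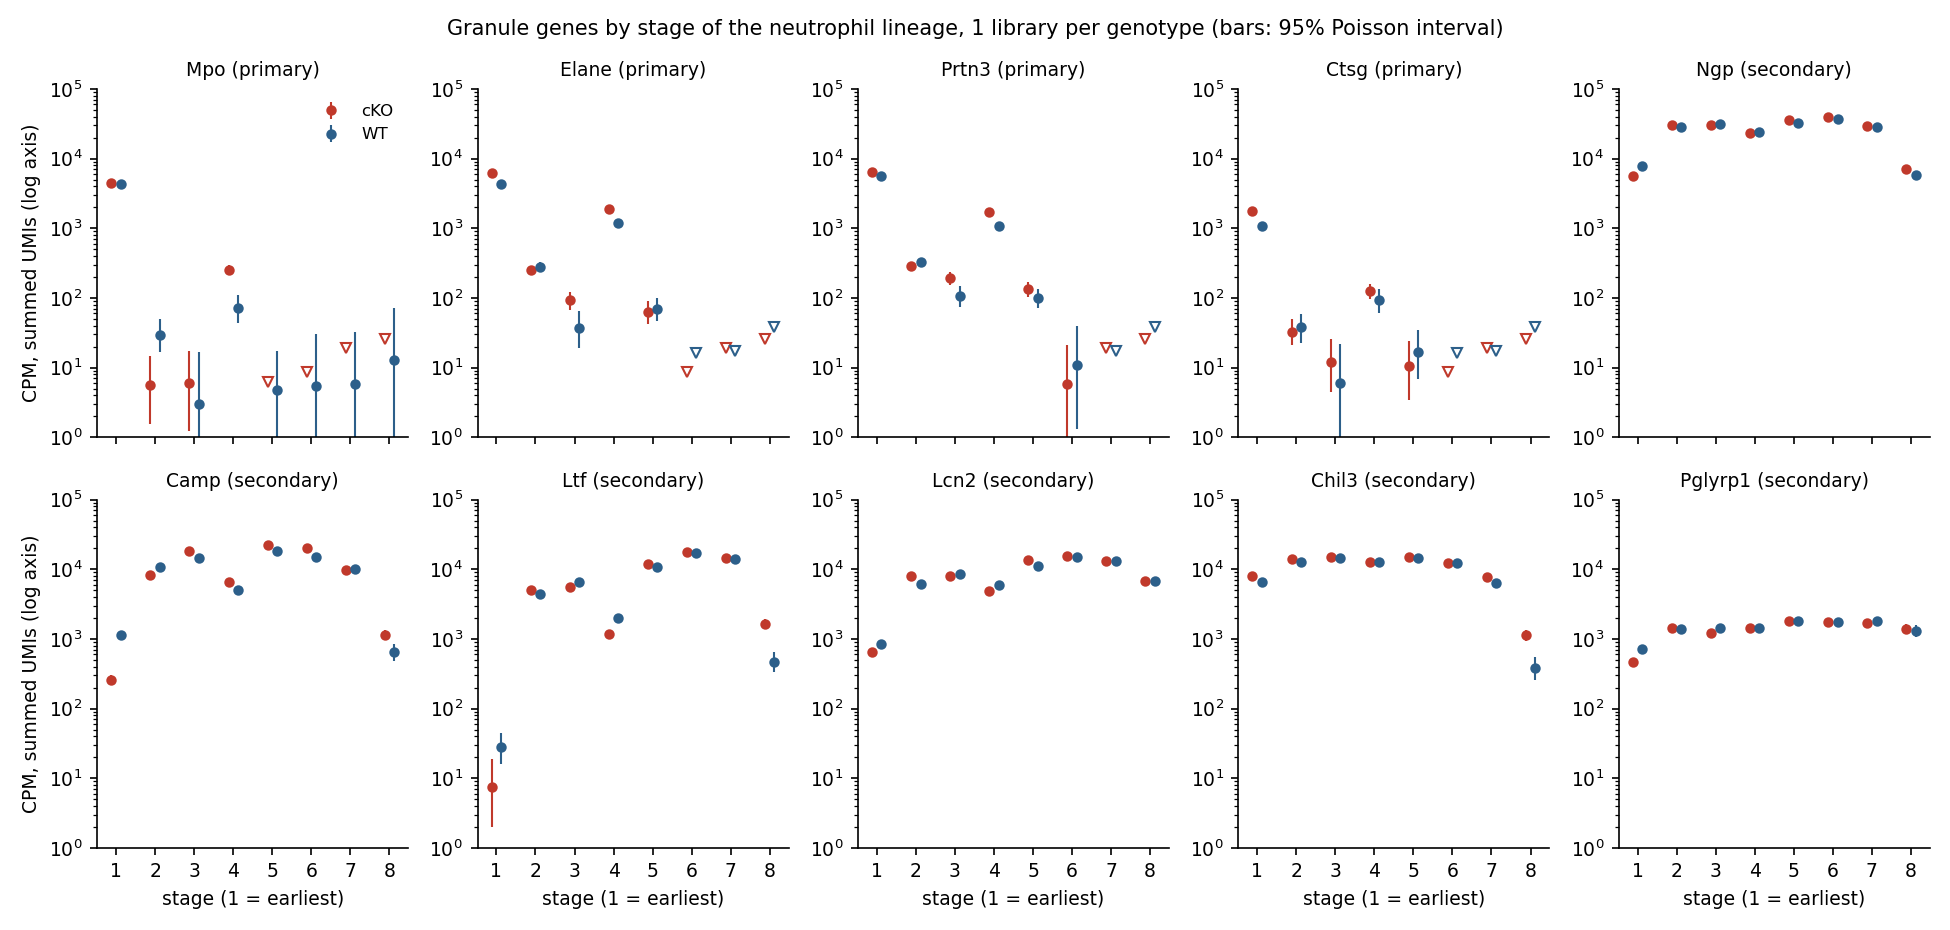
Summed level of each granule gene (CPM, log axis) against stage of the neutrophil lineage, 1 to 8, in the cKO library (red, left of each pair) and the WT library (blue). Bars are 95% Poisson intervals of counting error, and open triangles mark 0 UMIs, drawn at the level that 3 UMIs would give. Mpo, Elane, Prtn3 and Ctsg peak at stage 1, while Ltf is lowest at stage 1 and highest at stage 6.

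Summed together, though not each by itself, the secondary granule genes were higher at stages 2 to 7 than at stage 1 in both libraries and low again at stage 8. Their sum was 15138 CPM in cKO and 17190 CPM in WT at stage 1, 67634 and 64028 CPM at stage 2, and 107057 CPM in cKO and 98747 CPM in WT at stage 6. At stage 8 it was 19183 CPM in cKO (18394 to 19997) and 15369 CPM in WT (14516 to 16259).

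The 6 secondary genes did not share one course. Chil3, which encodes the chitinase-like lectin Ym1, was already at 8091 CPM in cKO and 6662 CPM in WT at stage 1. It reached 14969 CPM in cKO and 14632 CPM in WT at stage 5 and had 1121 and 380 CPM at stage 8. Ngp, whose product is related to cystatins and cathelicidins, was also present at stage 1, with 5668 CPM in cKO and 7795 CPM in WT, and peaked at stage 6 with 39467 and 37463 CPM. Ltf, the gene of the iron-binding lactoferrin, came last. It had 4 UMIs in cKO (7.35 CPM) and 16 in WT (27.6 CPM) at stage 1, 5106 CPM in cKO and 4425 CPM in WT at stage 2, and 17422 CPM in cKO and 17094 CPM in WT at stage 6. Camp, the gene of the cathelicidin peptide, had 259 CPM in cKO and 1149 CPM in WT at stage 1 and 22093 CPM in cKO and 18082 CPM in WT at stage 5. Lcn2, the gene of the siderophore-binding lipocalin 2, remained high at the end, with 6742 CPM in cKO and 6779 CPM in WT at stage 8 after a peak of 15485 and 14962 CPM at stage 6. Pglyrp1, the gene of a peptidoglycan recognition protein, stayed within a narrow range after stage 1, with 472 CPM in cKO and 710 CPM in WT at stage 1 and between 1209 and 1822 CPM at every later stage. The Lcn2 to Ngp ratio of UMIs was 0.947 in cKO and 1.17 in WT at stage 8, against 0.310 in cKO and 0.296 in WT over the lineage.

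Taking UMIs of the 10 genes together, the primary share was 5.65% in cKO (5.56 to 5.74) and 6.26% in WT (6.14 to 6.38) over the whole lineage. In this 3' assay each molecule is counted once whatever its length. By stage the share was 55.8%, 0.844%, 0.385%, 7.33% and 0.206% at stages 1 to 5 in cKO, and 47.4%, 1.04%, 0.195%, 4.48% and 0.215% in WT. At stages 6 to 8 it was at most 0.0824% in either library. No lineage cell carried primary without secondary UMIs once cells were thinned to 3703 UMIs. This left out 20 cKO and 45 WT cells. Of the thinned cells, 40.6% in cKO and 41.6% in WT held both classes and the rest only secondary UMIs, and primary UMIs outnumbered secondary UMIs in 4.44% and 5.95%, all of them at stage 1. A secondary UMI was also found in 70.5% of cKO and 68.2% of WT macrophage-like cells (unthinned). Finding both classes in a barcode therefore need not mean that the cell made both.

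**Figure D2:**
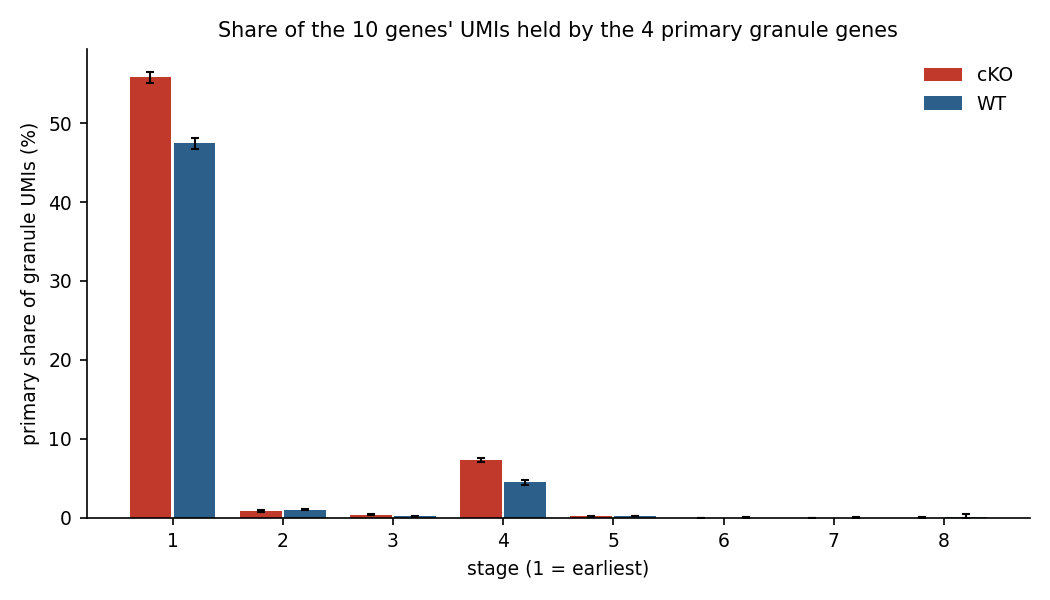
Share of the UMIs of the 10 granule genes held by Mpo, Elane, Prtn3 and Ctsg (percent) by stage, in the cKO library (red, left) and the WT library (blue, right), with 95% Clopper-Pearson intervals. Stage 1 stands at 55.8% in cKO and 47.4% in WT and stage 4 at 7.33% and 4.48%, with every other stage near 1% or below.

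Cell by cell, the thinned shares mostly rose and fell with the summed levels over the stages, but the order of the 2 libraries did not always match. Ltf at stage 8 was found in 31.6% of 19 cKO and 58.3% of 12 WT thinned cells, against 1664 CPM in cKO and 469 CPM in WT. Camp at stage 1 was found in 19.2% of cKO and 18.9% of WT thinned cells, against 259 and 1149 CPM. At stage 1 a UMI of Mpo was found in 96.2% of 26 cKO and 94.6% of 37 WT cells (unthinned 89.3% and 97.3%), and a UMI of Ltf in 0% and 5.41% (unthinned 14.3% and 18.9%). At stage 4 Elane was found in 84.2% of 38 cKO and 72.7% of 22 WT cells, and Ltf in 68.4% and 81.8%, with unthinned shares of 87.8% and 73.9% for Elane and 80.5% and 87.0% for Ltf. Mpo and Ltf together were found in 18.4% of cKO and 18.2% of WT stage 4 cells. Macrophage-like cells, which should lack Mpo, Elane and Ltf, held a UMI of Mpo in 1.93% of cKO and 2.56% of WT cells, of Elane in 2.88% and 2.25% and of Ltf in 12.7% and 11.1%, at medians of 7898 and 9393 UMIs. Mpo had 1 UMI at each of stages 6 to 8 in WT, and such single UMIs are not read as expression.

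**Figure D3:**
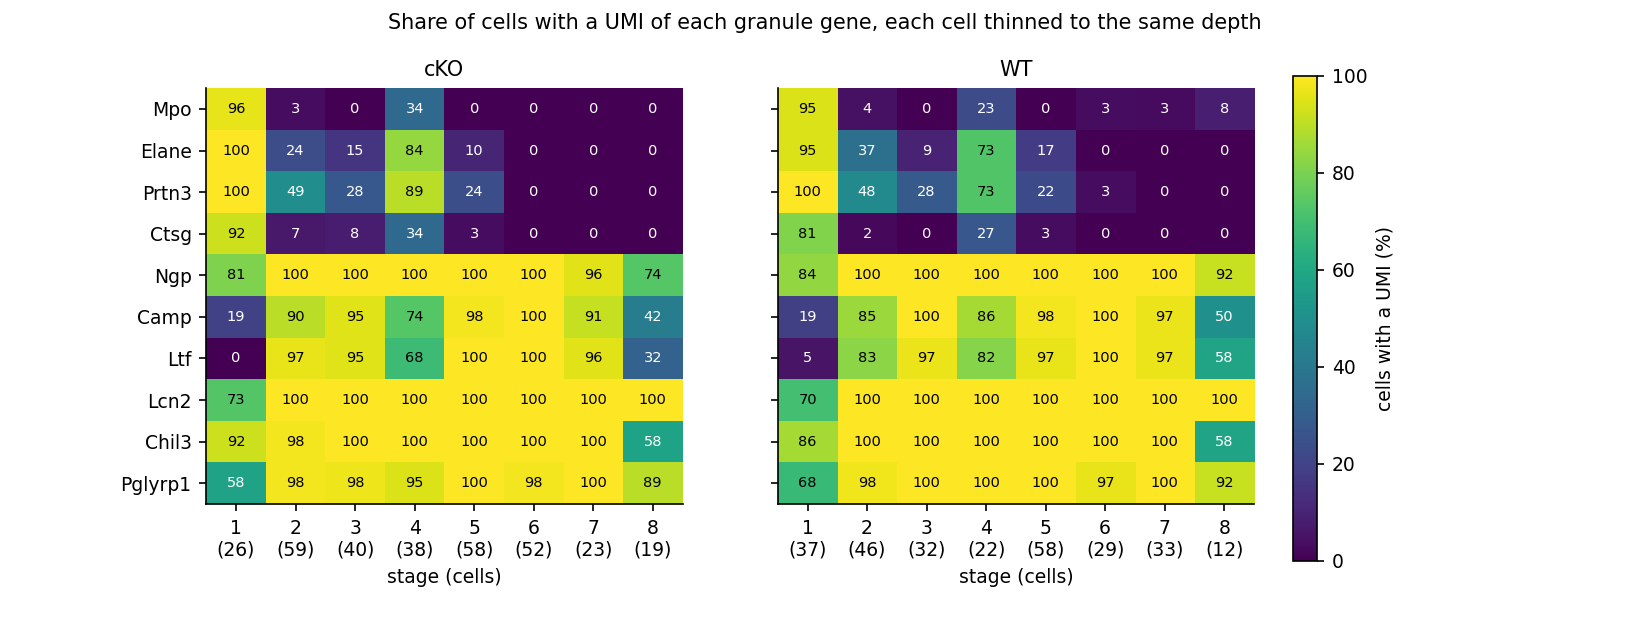
Share of cells (percent, printed in each square) with a UMI of each granule gene by stage, for cKO (left) and WT (right), after each cell was thinned to 3703 UMIs. The number of cells is in parentheses, and stage 8 rests on 19 cKO and 12 WT cells.

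Cells of both libraries were also divided by the score into an early, a middle and a late group of near-equal size (110 and 109 early and late cKO cells, 107 and 107 WT cells). The primary sum was 605 times higher in the early than in the late group in cKO (293 to 1504; 6518 and 10.8 CPM) and 327 times higher in WT (172 to 715; 5872 and 18.0 CPM). The late group rests on 7 primary UMIs in cKO and 9 in WT, so the size of these ratios is loose. The part that Prss57 in the score plays in them was not tested. With the progenitor list alone in the score the ratio was 78.1 in cKO (60.6 to 102) and 249 in WT (153 to 436), which turned the order of the libraries, and with cells thinned before scoring the ratios were 205 in cKO and 129 in WT. Mpo had 0 UMIs in the late group of cKO, 285-fold lower than early if that group is set at 3 UMIs. The lower end of the exact interval was 232-fold. Ctsg had 0 UMIs in both late groups, 123-fold lower in cKO and 74.7-fold lower in WT at the same setting, with lower ends of 99.7 and 60.6. The early over late ratio of the secondary sum was 0.624 in cKO (0.617 to 0.631) and 0.633 in WT (0.625 to 0.641). Among its members Ltf had the lowest ratio (0.218 in cKO and 0.221 in WT), then Lcn2 (0.378 and 0.382), while Chil3 lay above 1 in both (1.22 and 1.28). The order of the ratios was the same in both libraries, with Camp (0.604 in cKO and 0.611 in WT), Pglyrp1 (0.669 and 0.634) and Ngp (0.726 and 0.742) between Lcn2 and Chil3. Of the 649 cells, 116 lay within 0.1 SD of a border between these groups.

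Over the whole lineage the granule genes had similar levels in the 2 libraries. The secondary sum was 65108 CPM in cKO and 59605 CPM in WT, a ratio of 1.09 (1.085 to 1.099), and the primary sum was 3899 CPM in cKO and 3980 CPM in WT, a ratio of 0.980 (0.955 to 1.005). None of the 10 genes differed by 1.5-fold. In the background of 3546 genes with at least 50 CPM, 0.141% were 1.5-fold or more higher and 1.02% 1.5-fold or more lower in cKO. With no minimum still 0 of the 10 did, where 13.9% of the genes with a UMI were higher and 20.2% lower by that fold. Mpo was the lowest of the 10, with 766 CPM in cKO and 1004 CPM in WT, a ratio of 0.763 (0.722 to 0.806). Elane (1.16), Ctsg (1.17) and Camp (1.17) had the highest ratios, and the other 6 genes lay between 0.943 for Prtn3 and 1.12 for Lcn2. The median log2 ratio was 0.07 over the 4 primary and 0.12 over the 6 secondary genes, against -0.02 over all genes measured.

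The primary sum rests on few cells. Stage 1 held 10399 of 13294 primary UMIs in cKO and 8981 of 10138 in WT, and without stage 1 the cKO over WT ratio was 1.72 (1.60 to 1.84). Most of the primary UMIs left then lay in stage 4, with 2239 in 41 cKO cells and 682 in 23 WT cells. The ratio therefore also depends on how many cells fell in that stage. Within stage 1 the levels went apart: Elane had a ratio of 1.44 (1.37 to 1.52) and Ctsg 1.64 (1.48 to 1.81), whereas Mpo had 1.04 (0.985 to 1.10), Camp 0.226 (0.187 to 0.271) and Ngp 0.727 (0.694 to 0.761). Within stage 4 the ratio was 3.53 for Mpo (2.20 to 5.96), 1.61 for Elane, 1.56 for Prtn3 and 0.589 for Ltf (0.526 to 0.660). At stage 8 Ltf had 193 UMIs in cKO and 37 in WT, a ratio of 3.55 (2.49 to 5.19), and Chil3 130 and 30, a ratio of 2.95, while Lcn2 had 0.995. Each of these stages holds 21 to 41 cells per library, so a few cells at the border of a stage can set such values, and their part was not tested.

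Other genes of the granule programme, from a list of 21, were close to the members: 18 reached 50 CPM and 0 of 18 differed by 1.5-fold, with a median log2 ratio of 0.06. The largest differences were Mmp8, the neutrophil collagenase (0.680; 169 CPM in cKO and 249 CPM in WT), Olfm4 (1.23), Cd177 (0.834) and Ctsz (0.845). Of 11 granulopoiesis transcription factors 7 reached 50 CPM and 0 of 7 differed by 1.5-fold, the largest ratio being 1.44 for Cebpb (194 CPM in cKO and 135 CPM in WT). Pooled over libraries, Srgn, the gene of the proteoglycan serglycin that holds granule proteases, was at 2244 CPM at stage 1, 354 CPM at stage 4 and 1390 CPM at stage 8. Cebpe was highest at stage 3 (368 CPM) and Cebpa at stage 1 (58.8 CPM). Fcnb, the gene of ficolin B, was highest at stage 4 (993 CPM). Mmp9, of the later gelatinase granules, and Mmp8, itself a specific granule enzyme, reached 2078 and 2617 CPM at stage 8, where the pooled secondary sum was 17639 CPM. These genes, unlike the 10, were not kept out of the clustering.

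Over the 16 points formed by 8 stages in 2 libraries, the genes whose level followed the primary sum most closely were Nkg7 (r = 0.963), Myl10 (0.963), Vcam1 (0.963), Krtcap2 (0.956) and Sptssa (0.956), among 5433 genes compared. Those closest to the secondary sum were Ets1 (0.974), Cpne3 (0.969), Rflnb (0.960), Cldn1 (0.959) and Wfdc21 (0.948). Among the secondary genes themselves the correlation with their own sum ran between 0.707 for Chil3 and 0.991 for Ngp. The points share cells' depth and the way stages were cut, so these values are descriptions.

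**Figure D4:**
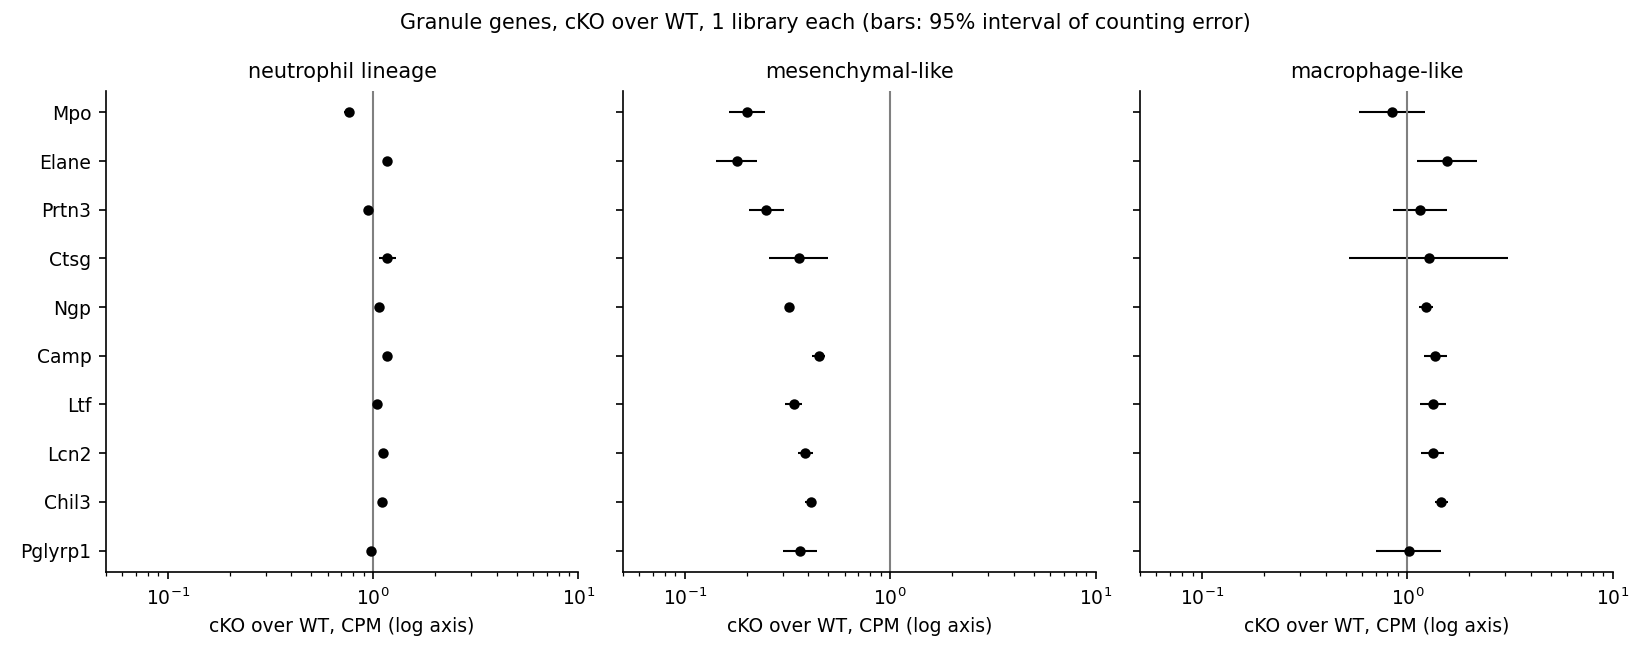
Ratio of CPM, cKO over WT (log axis), of each granule gene in neutrophil-lineage, mesenchymal-like and macrophage-like cells, with 95% intervals of counting error. Lineage ratios lie between 0.763 and 1.17, all mesenchymal-like ratios lie between 0.179 and 0.448, and macrophage-like ratios lie between 0.842 and 1.56.

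Traces of the granule genes were read in every large class. Of each library's UMIs of these genes, 88.6% of the primary and 93.7% of the secondary lay in lineage cells in cKO, and 76.8% and 85.8% in WT. Macrophage-like cells had 9.40 CPM of the primary sum in cKO and 8.04 CPM in WT, a ratio of 1.17 (0.974 to 1.41), and 174 CPM of the secondary sum in cKO and 129 CPM in WT, a ratio of 1.35 (1.29 to 1.40). With at least 50 CPM, 2 of 10 genes were measured there and 0 of 2 differed by 1.5-fold, against a background of 0.579% of genes higher and 0.603% lower in cKO. With no minimum 1 of 10 did (Elane, higher in cKO), where 11.7% of genes with a UMI were higher and 19.2% lower by that fold. The primary share of these traces, 5.13% in cKO (4.505 to 5.82) and 5.85% in WT (5.17 to 6.60), had intervals that held the lineage shares of 5.65% and 6.26%. Chil3 weighs on these shares. Without it, an alternative chosen after seeing the data, the share was 7.97% in cKO (7.01 to 9.02) and 8.67% in WT (7.67 to 9.76) in macrophage-like cells, above 6.86% in cKO and 7.58% in WT in the lineage. Endothelial-like cells gave 4.11% and 3.91% with all 10 genes, from 9 and 10 primary UMIs. With all barcodes, osteoclast-like cells had 825 CPM in cKO and 970 CPM in WT of the secondary sum and a primary share of 0.346% and 0.303%. Barcodes with at least 50 granule UMIs, 12 of 82 in cKO and 1 of 32 in WT, held 89.7% and 92.4% of their secondary UMIs. Without these barcodes the secondary sum was 96.6 CPM in cKO and 76.8 CPM in WT. The primary share was then 3.27% in cKO (1.07 to 7.46) and 3.85% in WT (0.469 to 13.2), from 5 and 2 primary UMIs. T or NK cell-like cells had 0 primary UMIs beside 24 secondary UMIs in cKO and 266 in WT, of which 1 WT barcode held 83.8%.

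Chil3 departed from the other members in macrophage-like cells. Its ratio to Ngp in UMIs was 1.28 in cKO (1.19 to 1.38) and 1.09 in WT (1.01 to 1.17), against 0.469 and 0.454 in the lineage. In macrophage-like cluster 2, led by Apoc2, Mmp12 and Cd36, it was 2.06 in cKO (1.83 to 2.31) and 1.88 in WT (1.64 to 2.14). The Lcn2 to Ngp ratio there (0.385 in cKO and 0.359 in WT over all macrophage-like cells) was nearer to that of the lineage (0.310 and 0.296).

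In mesenchymal-like cells, the class the Cre driver is aimed at, both sums were lower in cKO: 4.60 CPM in cKO and 20.8 CPM in WT for the primary sum (ratio 0.221, 0.198 to 0.247), and 68.8 CPM in cKO and 185 CPM in WT for the secondary sum (0.371, 0.360 to 0.382). Median depth differed, at 61951 UMIs in cKO and 13912 in WT. Per barcode there were 0.270 primary and 4.05 secondary UMIs in cKO, and 0.577 and 5.16 in WT. A primary UMI was found in 17.2% of cKO and 15.9% of WT cells, and a secondary UMI in 87.2% and 80.9%. Of the 10 genes Ngp alone reached 50 CPM, with 22.7 CPM in cKO and 70.4 CPM in WT, a ratio of 0.323 (0.306 to 0.339). It was past 1.5-fold, against a background of 0.295% of genes higher and 0.509% lower in cKO. Without the minimum all 10 were lower by at least 1.5-fold, where 12.6% of the 23962 genes with a UMI in this class were higher and 16.9% lower by that fold. The ratios differed between clusters of the class and with the handling of doublets, and the cause was not tested. Cluster 0, the shallow mesenchymal-like cluster, held 199 cKO and 1954 WT cells with medians of 3472 and 5483.5 UMIs, and had 37.7 CPM in cKO and 108 CPM in WT of the primary sum and 246 and 804 CPM of the secondary sum. The ratios within cluster 0 were 0.348 (0.280 to 0.428) for the primary and 0.306 (0.282 to 0.332) for the secondary sum. In mesenchymal-like clusters 1 and 6 the secondary ratios were 0.965 (0.922 to 1.01) and 0.986 (0.921 to 1.06). The primary ratios there lay on opposite sides of 1, at 0.778 in cluster 1 (0.631 to 0.959) and 1.32 in cluster 6 (1.01 to 1.73). Without cluster 0 the class had ratios of 0.952 (primary) and 0.970 (secondary). With no doublets removed the primary ratio of the class turned to 1.26 and the secondary ratio was 0.822.

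**Figure D5:**
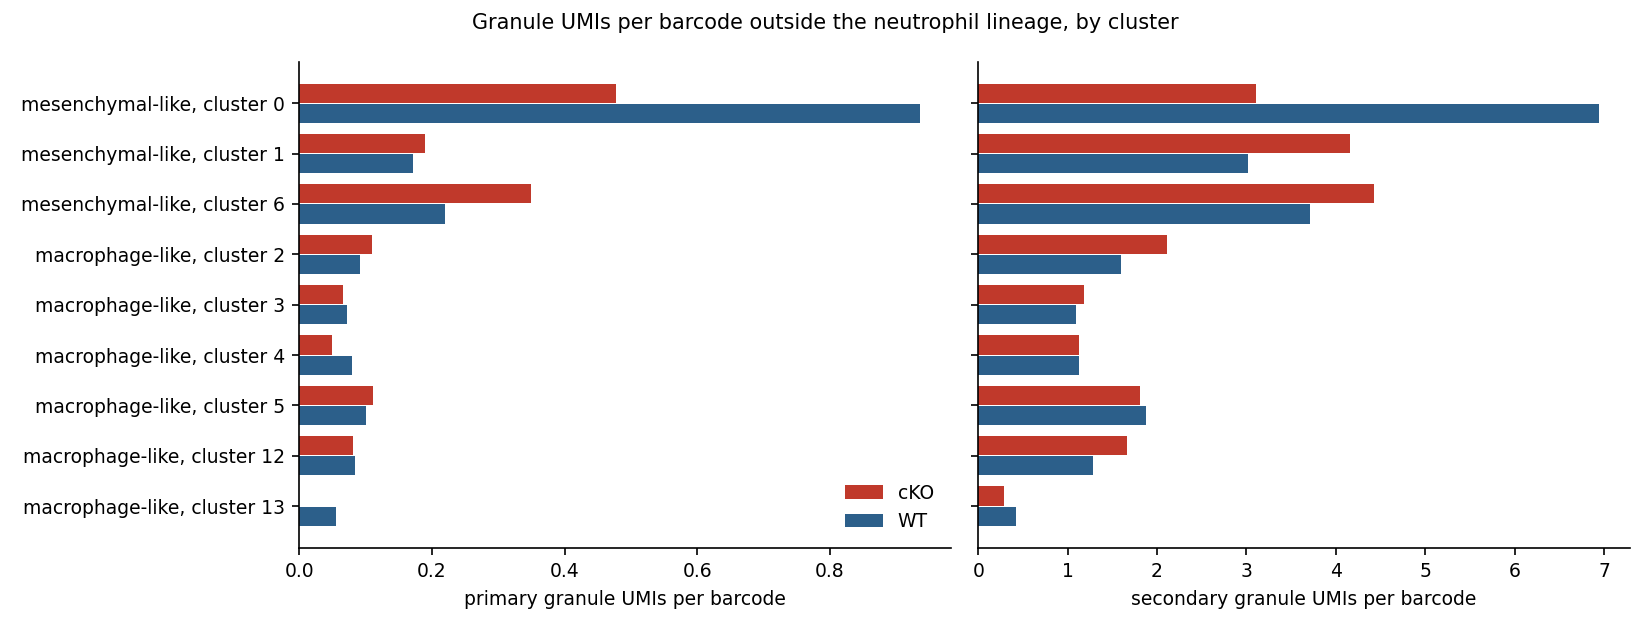
Primary (left) and secondary (right) granule UMIs per barcode in the mesenchymal-like and macrophage-like clusters with at least 20 cells in each library, cKO (red, above) and WT (blue, below). WT cluster 0 has the longest bars, with 0.936 primary and 6.94 secondary UMIs per barcode, against 0.477 and 3.11 in cKO cluster 0.

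Part of the mesenchymal-like signal sat in single barcodes. Barcodes with at least 50 granule UMIs were 6 of 1417 in cKO and 39 of 3729 in WT mesenchymal-like cells, 3 and 36 of them in cluster 0. In cluster 0 they held 84.2% of the primary UMIs in cKO and 54.0% in WT, and S100a8 and S100a9 made up a median of 3.28% and 1.31% of their UMIs. Without them the class had a primary ratio of 0.298 (0.261 to 0.340) and a secondary ratio of 0.414 (0.400 to 0.428). The rest of WT cluster 0 still had a primary share of 8.52% (7.97 to 9.08), above the 6.26% of the WT lineage, and 3.94% (2.22 to 6.41) in cKO from 15 primary UMIs. The part of doublets and of free RNA in these barcodes was not tested.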

How the data were processed

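The authors deposited 1 matrix of UMI counts per library, and per the file headers Cell Ranger 7.1.0 wrote it; mm10 (GRCm38) and Seurat are named in the submitters' processing notes. No source used here says whether intronic reads were included. Barcode and gene name files hold no measurement.

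Barcodes under 500 genes, under 1000 UMIs or over 15% mitochondrial UMIs were dropped, which left 5506 cKO and 8171 WT cells. Scrublet's automatic threshold marked 2 cells in each library, too few to have worked, so the highest-scoring cells at 0.8% per 1000 cells were removed (243 cKO and 534 WT). Both libraries were clustered together with scanpy 1.11.5 (2000 variable genes without the 10, 30 components, Leiden resolution 0.5) and named from marker lists. Sub-clusters (resolution 1) joined the lineage where neutrophil or granulocyte progenitor markers were nearest, or at least 3 were among the 10 leading genes, and no fewer than those of any other class. Stage 4 joined by this rule, and was unnamed by the marker rule alone. The sub-clustering, this rule and the limit of 50 granule UMIs per barcode were chosen after seeing the data.

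UMIs were summed per library and class. CPM have exact Poisson, shares Clopper-Pearson and ratios exact conditional binomial 95% intervals (scipy 1.17.1). They were run on simulated counts drawn with counting error alone, so that run cannot show how they cover variation between cells. A gene counted as measured at 50 CPM in either library. Genes named were the 10, up to 4 per list with the largest log2 ratio, and the 5 closest to each sum; Srgn, Cebpe, Cebpa, Fcnb and Mmp9 were named after their values were seen. The members and lists were chosen with earlier results of these data known. Alternatives covered cell filters, doublets, resolution, gating, weighting, scaling, the prior and the stage score.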

Additional observations from a re-analysis of the deposited data

Results flagged for a closer look

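The traces of the granule genes outside the lineage lay on opposite sides of 1 in the 2 largest classes. The primary sum had a cKO over WT ratio of 0.221 in mesenchymal-like cells and 1.17 in macrophage-like cells, and the secondary sum 0.371 and 1.35. All are ratios of CPM, and the median depth of mesenchymal-like cells was 61951 UMIs in cKO and 13912 in WT. The primary interval in macrophage-like cells (0.974 to 1.41) includes 1. With 1 library per genotype the difference between the classes was not tested. Without mesenchymal-like cluster 0 the mesenchymal-like ratios were 0.952 and 0.970, and with no doublets removed they were 1.26 and 0.822.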

How the results depend on the processing

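Of 112 alternative values, 57 were counted as unchanged and the rest were not, and the cause was not tested. Unchanged meant within the counting interval of the value reported. For counts of genes past 1.5-fold it meant an equal count or one within 1.5-fold. The primary shares cannot change with the scaling or the prior, and were counted as unchanged there. The mesenchymal-like primary ratio changed direction with no doublets removed. The lineage primary ratio, whose interval held 1, lay above 1 under the gate, which also took cells outside the lineage, and without stage 1. Without stage 1 the cKO share was above the WT share. P and S below are the primary and secondary sums. With no cell filter the lineage ratios (cKO over WT) were P 0.949 and S 1.12, the mesenchymal-like S ratio 0.404 and the WT primary share 6.60%. A stricter filter gave mesenchymal-like ratios of P 0.260 and S 0.416, a lineage S ratio of 1.11 and a WT early over late S ratio of 0.645. With no doublets removed the mesenchymal-like P ratio turned to 1.26 and the S ratio was 0.822, the lineage ratios were P 0.951 and S 1.13, the WT share was 6.54%, and early over late S was 0.603 in cKO and 0.617 in WT. A clustering resolution of 1 gave a lineage S ratio of 1.10 and a WT early over late S ratio of 0.656. Gating cells on S100a8 with S100a9, in place of the lineage, gave ratios of P 1.18 and S 1.24. That gate took 349 cKO cells, of which 331 were lineage cells and 3 mesenchymal-like. It took 396 WT cells, of which 300 were lineage cells and 86 mesenchymal-like. In the same gate the shares were 5.50% in cKO and 5.75% in WT, WT early over late P was 166, and early over late S was 0.602 in cKO and 0.612 in WT. Gating on Prrx1, in place of the mesenchymal-like class, gave ratios of P 0.739 and S 0.565. Weighting each cell equally gave mesenchymal-like ratios of P 0.160 and S 0.243, a lineage S ratio of 1.10, a WT share of 6.71%, and early over late S of 0.738 in cKO and 0.777 in WT. Scaling by all genes other than S100a8, S100a9 and the 10 gave a lineage S ratio of 1.11 and early over late S of 0.594 in cKO and 0.602 in WT. A prior of 1 CPM gave a mesenchymal-like P ratio of 0.257. With the progenitor list alone in the score, early over late P was 78.1 in cKO and 249 in WT, the reverse of the order reported, and S was 0.668 in cKO and 0.588 in WT. With cells thinned before scoring, early over late P was 205 in cKO and 129 in WT, and S was 0.612 in WT. Among alternatives chosen after seeing the data, leaving out barcodes with at least 50 granule UMIs gave mesenchymal-like ratios of P 0.298 and S 0.414, leaving out cluster 0 gave 0.952 and 0.970, and leaving out stage 1 gave a lineage P ratio of 1.72 and shares of 1.34% in cKO and 0.809% in WT. Leaving out Chil3 gave shares of 6.86% in cKO and 7.58% in WT in the lineage and 7.97% and 8.67% in macrophage-like cells. With no minimum CPM, 1 of 10 genes passed 1.5-fold in macrophage-like cells (higher in cKO, against 11.7% of all genes with a UMI) and 10 of 10 in mesenchymal-like cells (lower, against 16.9%).

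No paired analysis was possible because each genotype has 1 library, and for the same reason no replicate was left out. Depth limits the late stages most: the floor of 3 UMIs corresponds to 4.62 CPM in the late group of cKO and 5.99 CPM in that of WT.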

Other observations

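A small sub-cluster next to the lineage carried part of the primary programme beside Chil3 and some Lcn2, and with little RNA of the other secondary genes. It was left unnamed, held 29 cKO and 16 WT cells, and had pooled levels of 812 CPM of Ccr2, 1774 CPM of F13a1 and 305 CPM of Irf8, genes known from monocytes and dendritic cells. Prtn3 had 1176 CPM in cKO and 1122 CPM in WT there, and Elane 567 CPM in cKO and 337 CPM in WT. Mpo had 81.0 CPM in cKO and 221 CPM in WT, and Ngp 12.9 and 14.0 CPM. Lcn2 had 210 CPM in cKO and 94.7 CPM in WT. Chil3 had 5057 CPM in cKO and 1487 CPM in WT.

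In 5 basophil-like cells, all of the WT library, Ctsg had 18 UMIs and Pglyrp1 12, with 0 UMIs of Mpo and of Elane. In the 111 plasma cell-like cells of WT, Prtn3 had 27 UMIs in 14 cells and Mpo 0, and the primary share was 43.3% (32.9 to 54.2), from 39 primary and 51 secondary UMIs. The cKO library held 6 plasma cell-like cells.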
